A study of Mus musculus with 45 samples.

Results

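The 36 genes described here encode the glucose transporters, the enzymes of glycolysis and of lactate and pyruvate handling, and classic transcripts of the hypoxia response. They were listed by symbol, by what they do and with earlier results of these data known, and 33 of the 36 had a probe with that name on the Illumina mouse array, out of 19057 genes with a named probe. Transcript levels were profiled in mouse embryonic stem cells (ESCs, strain 129/Sv//Ev) and in embryoid bodies (EBs) grown from them, on 45 arrays of 12 groups. Each gene was given the value of its brightest probe, and all values below are background-corrected, quantile-normalized log2 signals unless stated otherwise.

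The study asked what Smad2 and Smad3, the transcription factors downstream of Nodal and activin, do as ESCs leave the undifferentiated state. There were 4 genotypes. Smad2/3 double knockout (DKO) cells carried a homozygous Smad2 tm1Rob allele and a CRISPR nickase deletion at the Smad3 promoter and exon 1, and all their clones came from 1 Smad2 knockout line, KT15. Smad2 knockout (KO) cells were the lines KT11, KT12, KT15 and KT17, homozygous for Smad2 tm1Rob. Smad3 KO clones carried the same kind of Smad3 deletion and all came from 1 wild-type line, CCE. Wild-type (WT) cells were the lines CCE, CCB, CCH and CCF. Each genotype was collected as ESCs in serum with LIF and, without LIF, as hanging-drop EBs at day 2 (d2) and day 3 (d3). Replicates were lines or clones, so that p-values measure the spread between clones. There were 4 arrays in each of 9 groups and 3 arrays in each of the 3 knockout ESC groups.

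The number of EBs pooled for RNA differed with the genotype. For WT and Smad3 KO, 1250 EBs were collected at both days. For Smad2 KO, 2500 EBs were collected at d2 and 5000 at d3. For Smad2/3 DKO, 5000 EBs were collected, except for 1 d2 array with 2500. The number of EBs therefore follows the same split as the absence of Smad2. The origin of the cells does so too, since all arrays without Smad2 came from KT lines and all others from CCE, CCB, CCH or CCF. The effects of the number of EBs, of Smad2 loss and of line origin on these genes cannot be told apart. Comparisons at an equal number of EBs are those of Smad3 KO with WT and, at d3, of Smad2/3 DKO with Smad2 KO.

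Across arrays the median signal ranged from 111 to 243 and 11338 to 14256 probes were detected. The Smad3 probe was detected in 22 of the 23 arrays of genotypes that carry Smad3 and in 2 of the 22 arrays of genotypes that lack it. In all, 4 arrays stood apart from their labels, 3 by the Smad3 probe and 3 by the stage their transcriptome resembled. The arrays were those labelled d2 Smad2/3 DKO replicate 4, d2 Smad2 KO replicate 4, d3 Smad2 KO replicate 4 and ESC Smad3 KO replicate 4. They were kept, and the results that change without them are given both ways.

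Glycolysis splits glucose into pyruvate. Glucose enters through facilitative transporters, phosphofructokinase commits it to the pathway, and pyruvate is then either reduced to lactate and exported or oxidised in mitochondria, a step that pyruvate dehydrogenase kinases restrain. When oxygen is scarce, prolyl hydroxylases of the Egln family no longer mark the alpha subunits of hypoxia-inducible factor (HIF) for degradation, and HIF raises the transcription of transporters, glycolytic enzymes and stress genes through a core motif spelled ACGTG or GCGTG. Mouse ESCs in the naive state use both glycolysis and respiration, whereas primed epiblast cells rely more on glycolysis. RNA from whole EBs averages all their cells, so that fewer cells expressing a gene and less RNA per cell cannot be told apart.

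Promoter sequences are shown for 4 members that changed in the EBs described below, as the stretch searched for the HIF motif. RefSeq promoters (GRCm38.p6) were listed for 33 of the 36 members, and the window taken was the 250 bases before the transcription start. ACGTG or GCGTG, searched on both strands with overlapping matches merged, was found in 26 of the 33 members' windows (78.8%), against 38.6% of the windows of 27025 genes and 57.6% of those of the genes tested on the arrays. ACGTG also lies within the E-box CACGTG, which other factors read. The match is a description of letters and not of binding. Slc2a1 lies at chr4:119108495-119108744 (plus strand), P4ha2 at chr11:54100674-54100923 (plus strand), Slc16a3 at chr11:120948817-120949066 (plus strand) and Egln3 at chr12:54203875-54204124 (minus strand). Each is printed 5′ to 3′ with the motif in capitals in either orientation.
Slc2a1: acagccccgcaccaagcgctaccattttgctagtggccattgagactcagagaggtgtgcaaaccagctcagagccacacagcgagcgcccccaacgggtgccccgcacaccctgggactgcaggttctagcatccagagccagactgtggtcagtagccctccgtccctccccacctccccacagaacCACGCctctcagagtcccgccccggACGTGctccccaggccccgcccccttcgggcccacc
P4ha2: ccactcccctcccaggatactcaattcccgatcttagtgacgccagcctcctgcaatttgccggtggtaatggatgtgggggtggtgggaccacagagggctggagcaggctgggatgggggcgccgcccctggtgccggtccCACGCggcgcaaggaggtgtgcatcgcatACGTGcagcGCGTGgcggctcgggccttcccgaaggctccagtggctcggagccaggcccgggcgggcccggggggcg
Slc16a3: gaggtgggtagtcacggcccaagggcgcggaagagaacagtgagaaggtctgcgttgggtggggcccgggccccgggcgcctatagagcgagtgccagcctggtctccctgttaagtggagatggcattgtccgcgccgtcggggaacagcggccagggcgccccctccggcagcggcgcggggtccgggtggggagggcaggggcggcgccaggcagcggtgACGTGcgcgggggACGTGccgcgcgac
Egln3: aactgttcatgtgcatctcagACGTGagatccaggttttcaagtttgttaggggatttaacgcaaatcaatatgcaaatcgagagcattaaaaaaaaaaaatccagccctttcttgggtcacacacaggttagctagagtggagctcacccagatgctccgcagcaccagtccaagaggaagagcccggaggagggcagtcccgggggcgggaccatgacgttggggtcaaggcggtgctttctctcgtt
Slc2a1 and Slc16a3 held 2 sites each, P4ha2 held 3 and Egln3 held 1.

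Of the 33 members with a named probe, 25 passed the detection filter and were tested. Both glucose transporters were tested, 6 of 9 genes of upper glycolysis, 5 of 6 of lower glycolysis, 4 of 6 of lactate and pyruvate fate, 1 of 3 mitochondrial hypoxia targets, 1 of 2 oxygen sensors and 6 of 8 other hypoxia targets. Hk2, the inducible hexokinase, Gpi1 and Eno1 had no probe with that name. The brightest probes of Hk1, Ldhb, Slc16a1, Bnip3, Higd1a, Car9 and Adm were detected on 0 of the 45 arrays, and that of Egln1 on 1. For example, Bnip3, which encodes a mitophagy receptor, was not well above background on any array, so that nothing can be said of its changes.

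Most core enzymes of glycolysis were bright and, by their brightest probe, were not called with all arrays. A gene counted as called at an adjusted p under 0.05 (limma, Benjamini-Hochberg over all tested probes). Of the 25 members tested, 13 were not called with all arrays in any of the 22 comparisons computed. They were Pfkl, Aldoa, Aldoc, Tpi1, Gapdh, Pgk1, Pgam1, Eno2, Pkm, Ldha, P4ha1, Ankrd37 and Mif. The share of all genes never called was not counted, so that the 13 are not read as a property of the list. Gapdh, glyceraldehyde-3-phosphate dehydrogenase, measured 13.84, 13.97, 13.89 and 13.89 in d3 Smad2/3 DKO EBs, against 13.77, 13.64, 13.87 and 13.34 in d3 WT EBs. Pgk1, phosphoglycerate kinase, measured 11.61, 12.01, 12.02 and 11.53 in d3 Smad2/3 DKO EBs, against 12.24, 12.21, 12.39 and 11.40 in d3 WT EBs. Ldha, the muscle-type subunit of lactate dehydrogenase, measured 13.90, 13.94, 13.71 and 13.98 in d3 Smad2/3 DKO EBs, against 14.20, 14.01, 14.11 and 13.89 in d3 WT EBs. The groups overlapped for all 3 genes. Over the 22 comparisons the fitted log2 differences of Gapdh lay between -0.35 and 0.31, those of Ldha between -0.42 and 0.34 and those of Pgk1 between -0.69 and 0.43. These probes are near the bright end of the array and several of these genes have processed pseudogenes, so that their differences may be understated or shared with copies, and Mif reached 89.6% of the brightest probe on an array. A dimmer probe of Pgk1 (log2 difference -0.78, adjusted p = 0.0295) and 1 of Pkm (log2 difference -0.76, adjusted p = 0.0408) were called lower in WT d3 EBs than in ESCs. The brightest probes of Pgk1 (log2 difference 0.14, adjusted p = 0.697) and Pkm (log2 difference 0.46, adjusted p = 0.198) were not called there. Ankrd37, a small HIF target, was detected on 6 of 45 arrays, with 5.40, 5.87, 5.31 and 6.29 in d3 Smad2/3 DKO EBs and 5.47, 5.79, 5.56 and 5.83 in d3 WT EBs.

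**Figure D1:**
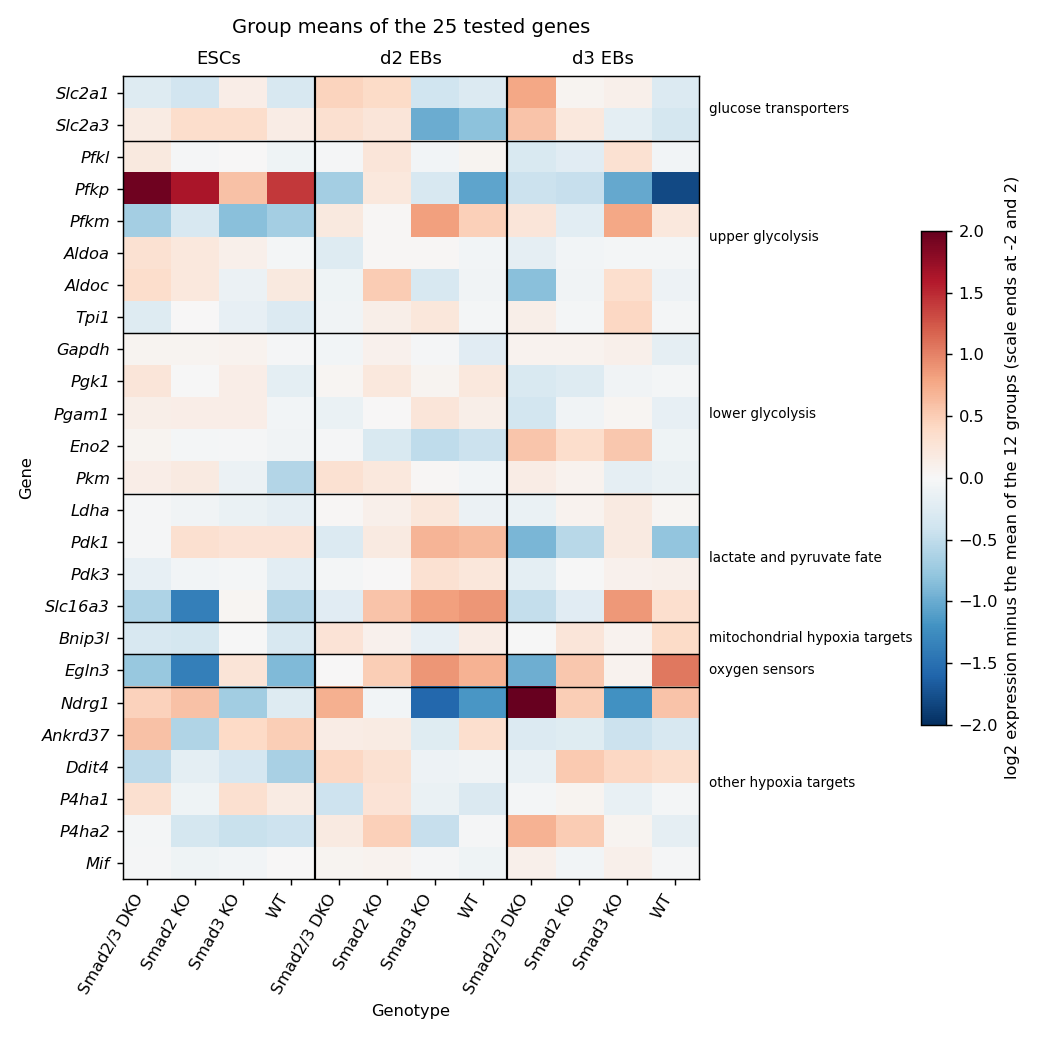
Group means of the 25 tested members (rows, by role) in the 12 stage and genotype groups (columns), as the log2 difference from the mean of the 12 groups. The rows of Gapdh, Ldha and Mif stay pale, whereas those of Pfkp, Egln3, Ndrg1 and Slc16a3 hold the darkest cells.

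As WT cells differentiated, single isoforms and hypoxia targets changed, in both directions. In d3 EBs against ESCs, 6 members were upregulated, where 18.7% of all genes tested were (the background share), and 2 were downregulated, where 16.4% of all genes were. In d2 EBs against ESCs, 4 were upregulated (background 14.5%) and 3 downregulated (background 14%). The median log2 difference of the members was 0.0473 at d3 and 0.137 at d2, against 0.0176 and 0.0171 over all genes. These counts, out of 25, lie near the background and are not read as a property of the list. The comparisons share the WT arrays with one another and with the knockout comparisons.

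The isoforms of phosphofructokinase moved in opposite directions. Pfkp, the platelet-type isoform, measured 11.96, 11.28, 11.10 and 11.31 in ESCs, 9.40, 8.91, 8.39 and 9.09 in d2 EBs and 8.54, 8.15, 7.66 and 8.42 in d3 EBs of the WT lines. No WT EB array reached the lowest WT ESC array (log2 difference -3.22 ± 0.26, adjusted p = 1.72e-06 at d3 and log2 difference -2.47 ± 0.26, adjusted p = 2.24e-05 at d2). Pfkm, the muscle-type isoform, measured 10.10, 10.34, 10.25 and 9.99 in ESCs, 11.54, 11.30, 11.33 and 11.11 in d2 EBs and 10.73, 11.29, 10.89 and 11.29 in d3 EBs. It was upregulated at both days (log2 difference 0.88 ± 0.17, adjusted p = 0.00141 at d3 and log2 difference 1.15 ± 0.17, adjusted p = 0.000292 at d2), while Pfkl, the liver-type isoform, was not called (log2 difference 0.03 ± 0.21, adjusted p = 0.922 at d3). The second detected probe of Pfkp fell likewise at d3 (log2 difference -3.17, adjusted p = 9.48e-07), and of the other 2 Pfkm probes 1 rose (log2 difference 0.85, adjusted p = 0.0148) and 1 was not called (log2 difference 0.29, adjusted p = 0.19). In the same WT arrays the mean log2 level of the 7 naive pluripotency genes was 11.23 to 11.34 in ESCs, 7.44 to 8.35 in d2 EBs and 7.29 to 8.16 in d3 EBs. Its part in the change of Pfkp was not tested.

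At the end of the pathway, the lactate exporter and a kinase that holds pyruvate back from mitochondria also changed. Slc16a3, which encodes the monocarboxylate transporter MCT4, measured 6.82, 6.90, 5.73 and 7.10 in ESCs, 8.14, 8.10, 8.69 and 7.51 in d2 EBs and 7.68, 7.75, 7.69 and 7.15 in d3 EBs. It was detected on 2 of 4 ESC arrays and on all d2 and d3 arrays, so that part of the ESC level is background signal. All d2 and d3 arrays lay above all ESC arrays (fitted log2 difference 1.48 ± 0.30, adjusted p = 0.00322 at d2 and log2 difference 0.93 ± 0.30, adjusted p = 0.0312 at d3), although with the cell line as a block the d3 call was lost (adjusted p = 0.0556), as it was without d3 replicate 1, 2 or 3 or ESC replicate 3 (adjusted p up to 0.0745). Pdk1, pyruvate dehydrogenase kinase 1, measured 10.73, 10.64, 10.44 and 10.62 in ESCs, 11.01, 10.72, 11.003 and 11.15 in d2 EBs and 9.17, 10.67, 9.34 and 8.99 in d3 EBs. It was lower at d3 than in ESCs (log2 difference -1.06 ± 0.29, adjusted p = 0.0135) and than at d2 (log2 difference -1.43 ± 0.29, adjusted p = 0.0181), where it was the single member downregulated without the cell line in the fit (background 2.18% of genes). With the cell line as a block, Pfkp was also lower at d3 than at d2 (log2 difference -0.75 ± 0.15, adjusted p = 0.0273, against 0.115 without it). The call against d2 was lost when d2 or d3 replicate 1, 3 or 4 was left out, with adjusted p up to 0.0666.

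Among the oxygen-responsive genes, Egln3, the prolyl hydroxylase that HIF itself induces, was upregulated in WT EBs. It measured 7.16, 5.72, 5.23 and 5.56 in ESCs, 7.12, 7.15, 8.08 and 7.62 in d2 EBs and 8.13, 7.04, 8.13 and 8.14 in d3 EBs, and was detected on 1 of 4, 4 of 4 and 4 of 4 arrays. With ESCs mostly at background signal, the fitted difference passed the test at both days (log2 difference 1.57 ± 0.39, adjusted p = 0.0106 at d2, and log2 difference 1.94 ± 0.39, adjusted p = 0.00214 at d3), although WT ESC replicate 1 lay among the EB arrays. Bnip3l, a mitophagy receptor, measured 10.81, 10.81, 10.90 and 10.45 in ESCs, 10.87, 11.25, 11.20 and 11.54 in d2 EBs and 11.38, 11.56, 11.33 and 11.53 in d3 EBs. It was upregulated at d3 (log2 difference 0.71 ± 0.16, adjusted p = 0.00523), and its d2 call (adjusted p = 0.0494) was lost with the cell line as a block (adjusted p = 0.0814) and without d2 replicate 2, 3 or 4 or ESC replicate 1, 2 or 4 (adjusted p up to 0.145). Ddit4, an inhibitor of mTORC1 that stress induces, measured 11.02, 9.70, 11.45 and 11.03 in ESCs, 11.34, 10.95, 11.79 and 11.42 in d2 EBs and 11.85, 11.58, 12.14 and 11.66 in d3 EBs. All d3 arrays lay above all ESC arrays (log2 difference 1.01 ± 0.32, adjusted p = 0.0261), and the call was lost without d3 replicate 1 or 3 (adjusted p up to 0.0768).

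Ndrg1, a stress-responsive gene that hypoxia induces in many cells, dipped and then rose. It measured 8.003, 7.83, 8.49 and 7.67 in ESCs, 7.03, 7.16, 6.94 and 7.29 in d2 EBs and 8.84, 8.07, 9.44 and 8.96 in d3 EBs of the WT lines. It was lower at d2 than in ESCs (log2 difference -0.89 ± 0.26, adjusted p = 0.0212), a call lost without replicate 3 of either stage (adjusted p up to 0.0601), and was the single member higher at d3 than at d2 (background 3.76%; log2 difference 1.72 ± 0.26, adjusted p = 0.0049). Its d3 level against ESCs was higher (log2 difference 0.83 ± 0.26, adjusted p = 0.0246), but that call was lost without ESC replicate 2 or 4 or d3 replicate 1, 3 or 4 (adjusted p up to 0.081). The dimmer second probe of Ndrg1 was also higher at d3 than in ESCs (log2 difference 1.73, adjusted p = 0.00108). Of the transporters, Slc2a3, the high-affinity transporter GLUT3, was lower at d2 (log2 difference -0.96 ± 0.26, adjusted p = 0.0158) and was not called at d3 (log2 difference -0.50 ± 0.26, adjusted p = 0.161). Slc2a1, the basal transporter GLUT1, was called at neither day (adjusted p = 0.908 at d2 and 0.897 at d3).

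In undifferentiated ESCs no member passed the test between a knockout and WT. No gene at all was called in Smad2/3 DKO (0%), Smad2 KO (0%) or Smad3 KO ESCs (0%) by limma with all arrays, and at an unadjusted p under 0.05 there were 2, 4 and 1 members, with 3.31%, 7.91% and 6.25% of all genes. Without the array that stood apart, 4 genes were called higher and 1 lower in Smad2/3 DKO ESCs and 3 higher in Smad2 KO ESCs, none of them a member. Slc2a1 measured 12.78, 12.30 and 12.75 in Smad2/3 DKO ESCs, against 13.08, 12.20, 12.57 and 12.32 in WT ESCs, and Ndrg1 measured 8.54, 8.88 and 8.77 in Smad2/3 DKO ESCs, against 8.003, 7.83, 8.49 and 7.67 in WT ESCs. The groups overlapped for Slc2a1. Ndrg1 measured 8.66 to 8.98 in Smad2 KO ESCs, where every array also lay above the highest WT array, and 7.02 to 7.96 in Smad3 KO ESCs. For Ndrg1 every Smad2/3 DKO array lay above the highest WT array, but the difference was not called (log2 difference 0.73 ± 0.25, adjusted p = 1).

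At d2, both glucose transporters and Ndrg1 were higher in Smad2/3 DKO than in WT EBs. These were 3 members, against 1.74% of all genes tested, and 0 were downregulated, against 0.674%. Slc2a1 measured 13.19, 13.26, 13.50 and 13.29 in Smad2/3 DKO EBs, against 12.43, 12.66, 12.61 and 12.66 in WT EBs (log2 difference 0.72 ± 0.13, adjusted p = 0.00906). Slc2a3 measured 13.15, 13.16, 13.46 and 13.32 in Smad2/3 DKO EBs, against 12.28, 11.68, 12.09 and 12.48 in WT EBs (log2 difference 1.14 ± 0.21, adjusted p = 0.0097). Every DKO array was above every WT array for both transporters, which amounts to 1.65-fold for Slc2a1 and 2.20-fold for Slc2a3. From ESCs to d2 EBs the mean of Slc2a3 went from 13.09 to 12.13 in WT and from 13.11 to 13.27 in Smad2/3 DKO. That of Slc2a1 went from 12.54 to 12.59 in WT and from 12.61 to 13.31 in Smad2/3 DKO. The change between stages within Smad2/3 DKO was not tested. With median scaling the Slc2a1 call was lost (adjusted p = 0.0694) and that of Slc2a3 was kept (adjusted p = 0.0123).

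Ndrg1 had the largest difference of the 25 members at d2. It measured 8.62, 8.55, 9.79 and 8.96 in Smad2/3 DKO EBs, against 7.03, 7.16, 6.94 and 7.29 in WT EBs, a 3.67-fold difference (log2 difference 1.88 ± 0.26, adjusted p = 0.000953) with no overlap. Its second probe, which was dimmer, had log2 difference 1.67, adjusted p = 0.0581. From ESCs to d2 EBs the mean of the brightest Ndrg1 probe went from 7.997 to 7.10 in WT and from 8.73 to 8.98 in Smad2/3 DKO. On the side of pyruvate and lactate, Pdk1 measured 10.36, 9.60, 10.38 and 9.89 in Smad2/3 DKO EBs, against 11.01, 10.72, 11.003 and 11.15 in WT EBs (log2 difference -0.91 ± 0.24, adjusted p = 0.0666). Slc16a3 measured 7.09, 7.24, 6.68 and 6.97 in Smad2/3 DKO EBs, against 8.14, 8.10, 8.69 and 7.51 in WT EBs (log2 difference -1.12 ± 0.31, adjusted p = 0.08). Neither was called with all arrays, and both were lower without the d2 arrays that stood apart (adjusted p = 0.0488 for Pdk1 and 0.02 for Slc16a3), which brought the count to 5 members, while 3.05% of all genes were then called higher and 1.58% lower. Ddit4 measured 12.37, 12.01, 11.48 and 11.61 in Smad2/3 DKO EBs, against 11.34, 10.95, 11.79 and 11.42 in WT EBs (log2 difference 0.49 ± 0.24, adjusted p = 0.389).

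Fewer members were called in the d2 single knockouts than in d2 Smad2/3 DKO EBs, although both transporter differences in Smad2 KO were near those in Smad2/3 DKO. Ndrg1 measured 7.80 to 8.59 in Smad2 KO EBs, above every WT array, without being called with all arrays. In Smad2 KO EBs, 2 members were upregulated (background 0.342%). Slc2a3 measured 13.57, 12.72, 12.95 and 13.52 in Smad2 KO EBs (log2 difference 1.05 ± 0.21, adjusted p = 0.0424) and Slc2a1 measured 13.46, 13.10, 13.11 and 13.28 (log2 difference 0.65 ± 0.13, adjusted p = 0.0461), against the WT values above. Without the array that stood apart, neither transporter was called (adjusted p = 0.0603 for Slc2a3 and 0.0533 for Slc2a1) and Ndrg1 was (adjusted p = 0.0438, against 0.0784 with it). Both transporter calls were also lost without any 1 of the other arrays, except that Slc2a3 kept it without Smad2 KO replicate 2 (adjusted p up to 0.138 for Slc2a1 and 0.136 for Slc2a3). In Smad3 KO EBs, at the same number of EBs as WT, no member was called (background 0.0208%, with 1 member at an unadjusted p under 0.05). The 95% interval of the Smad3 KO difference was -0.40 to 0.16 for Slc2a1, -0.63 to 0.27 for Slc2a3 and -0.96 to 0.13 for Ndrg1. Between Smad2/3 DKO and Smad2 KO at d2 no member was called (background 0.0104%, with 3 members at an unadjusted p under 0.05), with Ndrg1 at log2 difference 0.77 ± 0.26, adjusted p = 1.

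At d3, both transporters, Ndrg1 and P4ha2 were upregulated in Smad2/3 DKO EBs and Egln3 was downregulated. In all, 4 members were upregulated, against 9.49% of all genes, and 1 was downregulated, against 7.5%. These counts, out of 25, lie near the background and are not read as a property of the list. The median log2 difference was 0.004 over the members and -0.0277 over all genes.

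Slc2a1 measured 13.58, 13.76, 13.68 and 13.54 in Smad2/3 DKO EBs, against 12.25, 13.27, 12.49 and 12.35 in WT EBs, a 2.07-fold difference without overlap (log2 difference 1.05 ± 0.25, adjusted p = 0.0107). Slc2a3 measured 13.54, 13.91, 13.75 and 12.87 in Smad2/3 DKO EBs, against 12.28, 13.34, 12.62 and 12.14 in WT EBs (log2 difference 0.92 ± 0.30, adjusted p = 0.0475). The groups overlapped for Slc2a3, and the call was lost without Smad2/3 DKO replicate 1, 2 or 3 or WT replicate 1, 3 or 4 (adjusted p up to 0.148). Ndrg1 measured 11.44, 9.10, 10.30 and 10.69 in Smad2/3 DKO EBs, against 8.84, 8.07, 9.44 and 8.96 in WT EBs (log2 difference 1.56 ± 0.38, adjusted p = 0.0123). The groups overlapped, with the lowest Smad2/3 DKO array below the highest WT array, and the second probe was not called (log2 difference 1.15, adjusted p = 0.0666).

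P4ha2, an alpha subunit of the prolyl hydroxylase that matures collagen, measured 10.18, 10.39, 10.21 and 10.12 in Smad2/3 DKO EBs, against 9.25, 9.39, 8.99 and 9.79 in WT EBs, without overlap (log2 difference 0.87 ± 0.17, adjusted p = 0.00308). The second detected probe of P4ha2 had log2 difference 0.50, adjusted p = 0.0875. Its relative P4ha1 was not called (log2 difference 0.00 ± 0.23, adjusted p = 0.993). When the arrays were scaled to a common median in place of quantile normalization, the median of all genes shifted by -0.22 in this comparison, and of the members called at d3 Egln3 alone was still called. Ddit4 measured 11.33, 10.84, 11.94 and 11.12 in Smad2/3 DKO EBs, against 11.85, 11.58, 12.14 and 11.66 in WT EBs (log2 difference -0.50 ± 0.22, adjusted p = 0.152).

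Egln3 went the other way. It measured 5.95, 5.97, 5.70 and 5.66 in Smad2/3 DKO EBs, against 8.13, 7.04, 8.13 and 8.14 in WT EBs (log2 difference -2.04 ± 0.33, adjusted p = 0.00075). The DKO probe was not well above background on any of the 4 arrays, whereas it was detected on all 4 WT arrays, so that Egln3 was at least 2.21-fold lower in Smad2/3 DKO EBs, with the dim arrays set at the lowest signal that counts as detected. Among the members that lay lower without being called were Slc16a3, with 6.82, 6.68, 6.10 and 7.40 in Smad2/3 DKO EBs and 7.68, 7.75, 7.69 and 7.15 in WT EBs (log2 difference -0.82 ± 0.29, adjusted p = 0.0738), and Bnip3l, with 10.89, 11.15, 11.32 and 10.88 in Smad2/3 DKO EBs and 11.38, 11.56, 11.33 and 11.53 in WT EBs (log2 difference -0.39 ± 0.15, adjusted p = 0.0879). Aldoc also lay lower without being called (log2 difference -0.73, adjusted p = 0.232), as did Ddit4, given above.

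Pfkp, which fell as WT cells differentiated, measured 8.98, 9.45, 9.71 and 10.15 in d3 Smad2/3 DKO EBs, against 8.54, 8.15, 7.66 and 8.42 in d3 WT EBs. All DKO arrays lay above all WT arrays, yet the difference was not called with all arrays (log2 difference 1.38 ± 0.48, adjusted p = 0.0656) and was without the d3 array that stood apart (adjusted p = 0.00248). That array, d3 Smad2 KO replicate 4, measured 11.44 for Pfkp against 8.35 to 9.46 in the other d3 Smad2 KO arrays. Pdk1, by contrast, measured 8.69, 9.85, 9.29 and 9.88 in d3 Smad2/3 DKO EBs, against 9.17, 10.67, 9.34 and 8.99 in d3 WT EBs (log2 difference -0.12 ± 0.39, adjusted p = 0.884).

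**Figure D2:**
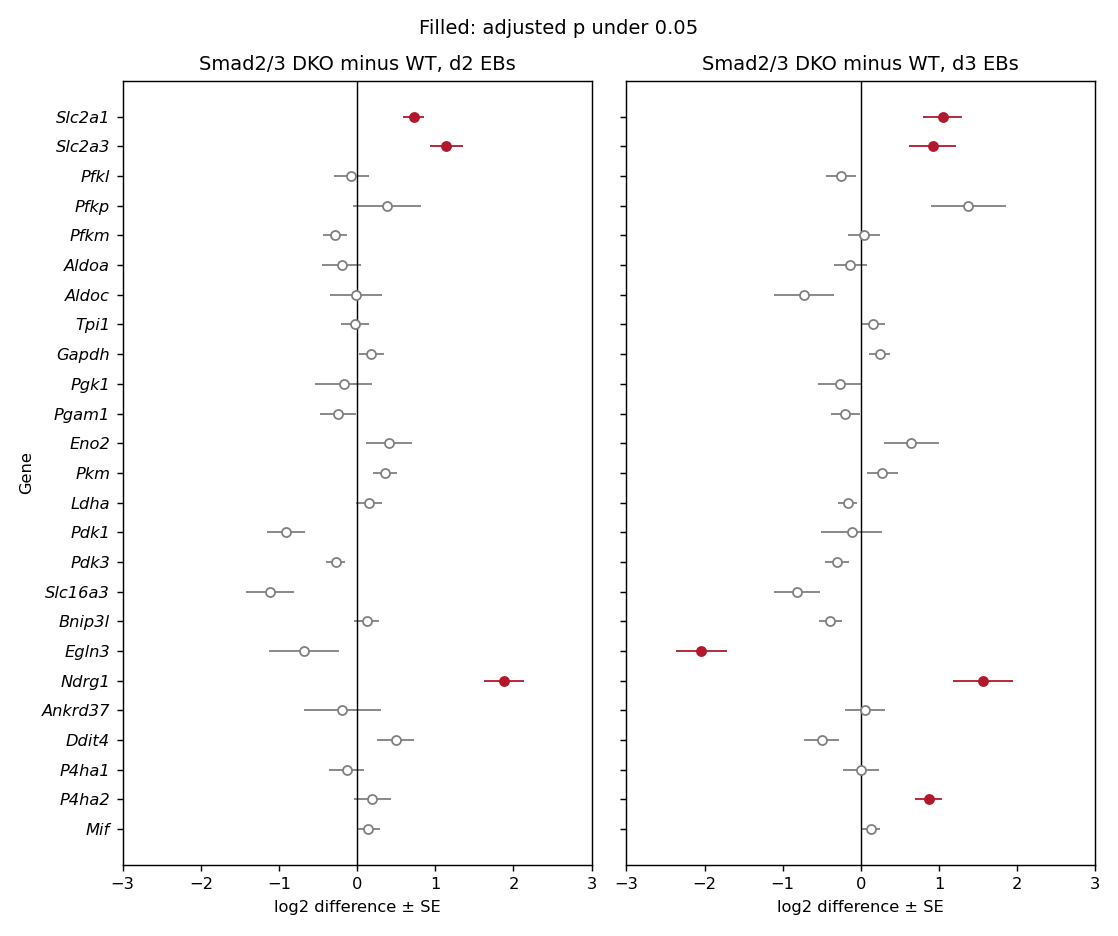
Fitted log2 difference with its standard error for the 25 tested members, Smad2/3 DKO minus WT, at d2 and d3 (filled where the adjusted p was under 0.05). Ndrg1, Slc2a1 and Slc2a3 lie to the right at both days, P4ha2 and Egln3 are called at d3 alone, and most enzymes of glycolysis lie near 0.

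**Figure D3:**
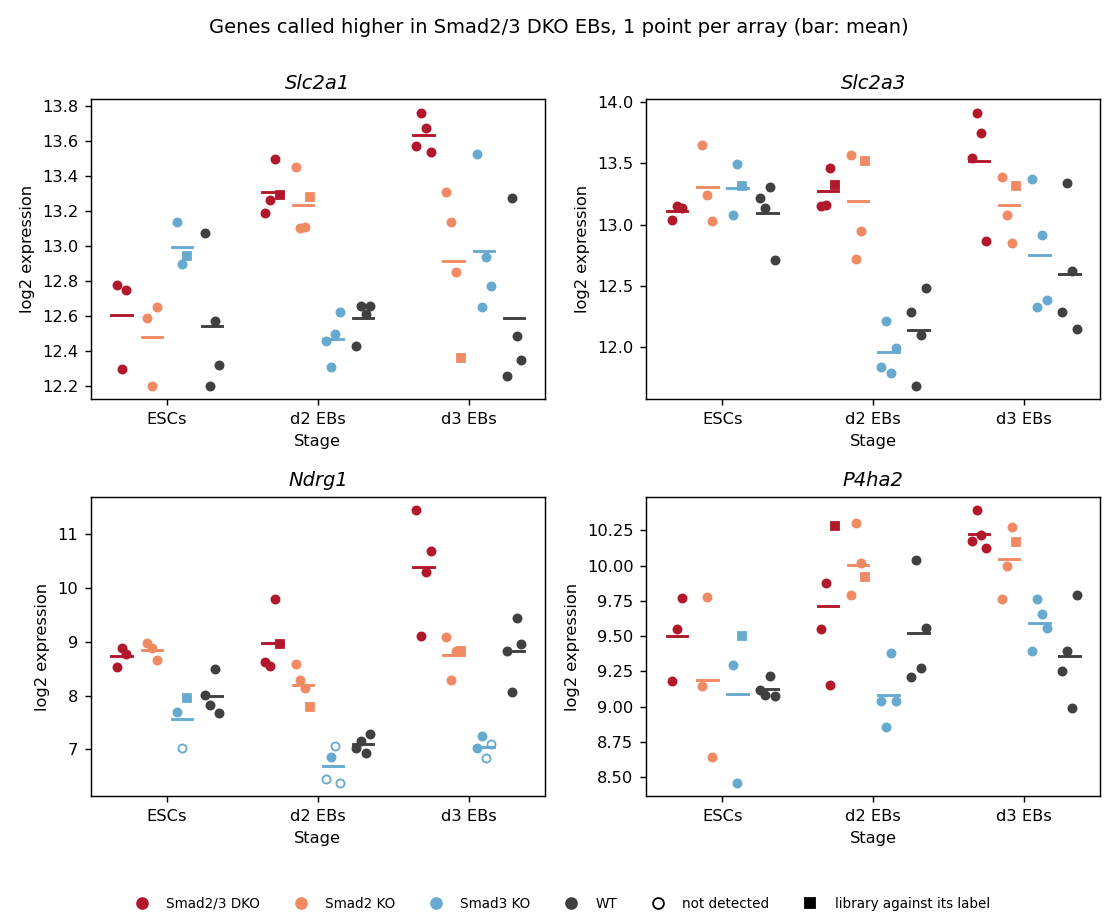
Log2 values of Slc2a1, Slc2a3, Ndrg1 and P4ha2 on each of the 45 arrays, by stage and genotype, with the group means. The Smad2/3 DKO points for Slc2a1 sit above all WT points at d2 and d3 and among them in ESCs. Open points were not detected and squares are arrays that stood apart from their labels.

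The d3 single knockouts differed from each other for Ndrg1. In Smad3 KO EBs, Ndrg1 measured 7.02, 7.24, 6.83 and 7.11, against 8.84, 8.07, 9.44 and 8.96 in WT EBs, without overlap. It was the single member downregulated, where 0.778% of all genes were (log2 difference -1.77 ± 0.38, adjusted p = 0.0399), and it was detected on 2 of 4 Smad3 KO arrays and 4 of 4 WT arrays. Both groups had 1250 EBs. The call was lost without Smad3 KO replicate 2, 3 or 4 or WT replicate 1, 3 or 4, with adjusted p up to 0.166. Egln3 measured 7.18, 7.01, 7.11 and 6.20 in Smad3 KO EBs (log2 difference -0.98 ± 0.33, adjusted p = 0.124). In Smad2 KO EBs, P4ha2 was the single member upregulated, where 2.3% of all genes were, with 9.76, 10.00, 10.27 and 10.17 in Smad2 KO EBs against the WT values above (log2 difference 0.69 ± 0.17, adjusted p = 0.0466), and without the array that stood apart it was not called (adjusted p = 0.0792). It was lost likewise without Smad2 KO replicate 2 or 3 or WT replicate 1, 2 or 3 (adjusted p up to 0.146).

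Ndrg1 was therefore lower in cells without Smad3 where Smad2 was present and higher where Smad2 was absent. Against Smad2 KO EBs, with 5000 EBs in both, Smad2/3 DKO EBs had 1 member upregulated (background 2.65%) and 1 downregulated (background 2.17%). Ndrg1 measured 11.44, 9.10, 10.30 and 10.69 in Smad2/3 DKO EBs, against 9.09, 8.29, 8.83 and 8.82 in Smad2 KO EBs (log2 difference 1.63 ± 0.38, adjusted p = 0.0254). That call was lost without Smad2/3 DKO replicate 1, 3 or 4 or Smad2 KO replicate 2 or 3 (adjusted p up to 0.0899), and the parental line KT15 itself measured 8.29. The difference of the 2 Smad3 effects, a test added after these values were seen, was 3.40 ± 0.54 (adjusted p = 0.00751) and Ndrg1 was the single member called (background 0.695%). It lay between 3.05 and 3.83 whichever of the 16 d3 arrays was left out. At d2 the same test called no member (background 0%, with 4 members at an unadjusted p under 0.05), with Ndrg1 at log2 difference 1.19 ± 0.36, adjusted p = 0.451.

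Egln3 was the member lower in Smad2/3 DKO than in Smad2 KO EBs at d3, with 5.95, 5.97, 5.70 and 5.66 in Smad2/3 DKO EBs, against 6.64, 8.20, 6.92 and 7.62 in Smad2 KO EBs (log2 difference -1.53 ± 0.33, adjusted p = 0.0162), or at least 1.55-fold lower. The KT15 line measured 8.20. For the members that were higher against WT, the difference between Smad2/3 DKO and Smad2 KO at d3 was 0.72 for Slc2a1 (95% interval 0.19 to 1.26), 0.36 for Slc2a3 (95% interval -0.27 to 0.99) and 0.18 for P4ha2 (95% interval -0.19 to 0.54), none of them called.

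**Figure D4:**
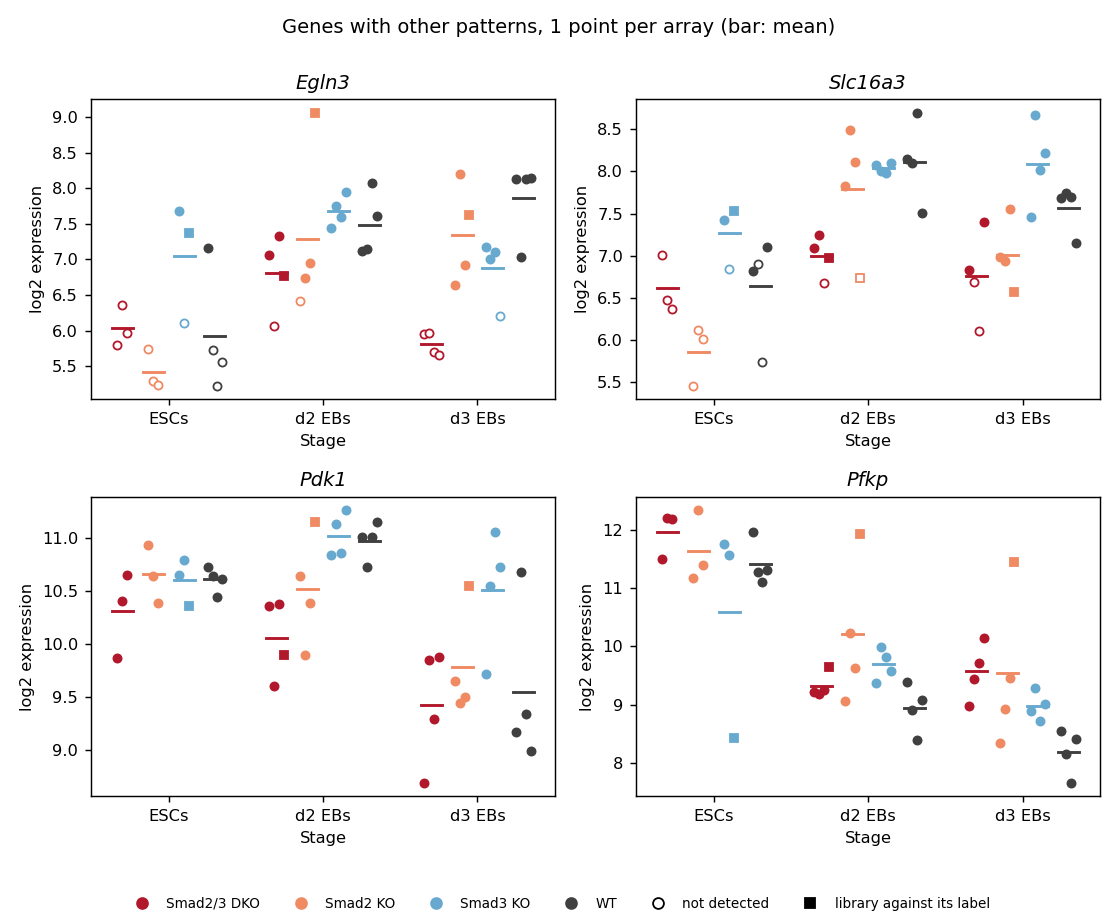
Log2 values of Egln3, Slc16a3, Pdk1 and Pfkp on each of the 45 arrays, by stage and genotype, with the group means. The 4 Smad2/3 DKO arrays for Egln3 at d3 were not detected and lie below every d3 WT array. Open points were not detected and squares are arrays that stood apart from their labels.

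The genes were then compared by the number of EBs, as the mean of Smad2/3 DKO and Smad2 KO minus the mean of Smad3 KO and WT. At d2, 3 members were higher in the genotypes collected as 2500 or 5000 EBs (background 6.05%) and 3 were lower (background 2.99%). The higher ones were Ndrg1 (log2 difference 1.70 ± 0.18, adjusted p = 5.3e-05), Slc2a1 (log2 difference 0.74 ± 0.09, adjusted p = 0.000228) and Slc2a3 (log2 difference 1.19 ± 0.15, adjusted p = 0.000228). The lower ones were Pfkm (log2 difference -0.54 ± 0.11, adjusted p = 0.00609), Pdk1 (log2 difference -0.71 ± 0.17, adjusted p = 0.0192) and Pdk3, a related kinase (log2 difference -0.28 ± 0.08, adjusted p = 0.0468). Both glucose transporters were thus higher and both tested pyruvate dehydrogenase kinases lower, and none of the tested enzymes from aldolase to lactate dehydrogenase was called with all arrays. Without the d2 arrays that stood apart, Pkm, pyruvate kinase (log2 difference 0.36 ± 0.10, adjusted p = 0.0385), and Egln3 (log2 difference -0.82 ± 0.21, adjusted p = 0.022) were called, where 8.86% of all genes were called higher and 3.64% lower. The Pdk3 call was lost in 14 of 16 fits that left out 1 array (adjusted p up to 0.1).

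At d3, with 5000 against 1250 EBs, 3 members were higher (background 10.6%) and 3 were lower (background 9.14%). The higher ones were Ndrg1 (log2 difference 1.63 ± 0.27, adjusted p = 0.000726), P4ha2 (log2 difference 0.66 ± 0.12, adjusted p = 0.00147) and Slc2a3 (log2 difference 0.66 ± 0.21, adjusted p = 0.0388). The lower ones were Slc16a3 (log2 difference -0.95 ± 0.21, adjusted p = 0.00495), Egln3 (log2 difference -0.78 ± 0.23, adjusted p = 0.0302) and Pfkm (log2 difference -0.47 ± 0.14, adjusted p = 0.0324). Slc2a1 was not called in this contrast (log2 difference 0.50 ± 0.18, adjusted p = 0.0671). When 1 array at a time was left out, the call was lost in 12 of 16 fits for Slc2a3, 10 of 16 for Egln3 and 8 of 16 for Pfkm, and in none for Ndrg1, P4ha2 or Slc16a3. Without d3 Smad2 KO replicate 4, which stood apart, 4 members were higher and 5 lower, where 12.6% of all genes were called higher and 10.3% lower, and Slc2a1, Pfkl, Pfkp and Aldoc joined the calls while Slc2a3 left them. For Ndrg1 the contrast joined unlike parts, since Smad2 KO EBs, with 5000 EBs, lay at the WT level (log2 difference -0.07 ± 0.38, adjusted p = 0.956) while Smad2/3 DKO EBs lay above it and Smad3 KO EBs below. Slc16a3 had 6.82, 6.68, 6.10 and 7.40 in Smad2/3 DKO, 6.98, 6.94, 7.55 and 6.56 in Smad2 KO, 7.46, 8.67, 8.02 and 8.22 in Smad3 KO and 7.68, 7.75, 7.69 and 7.15 in WT EBs. Within the d2 Smad2/3 DKO group the array with 2500 EBs was the highest of the 4 for 6 of the 25 members, the lowest for 9 and between the others for 10. The same count was not made over all genes, and the others include replicate 4, which stood apart from its label. These ranks are therefore not read as a result. The array with 2500 EBs measured 13.26 (others 13.19 to 13.50) for Slc2a1, 13.16 (others 13.15 to 13.46) for Slc2a3 and 8.55 (others 8.62 to 9.79) for Ndrg1.

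**Figure D5:**
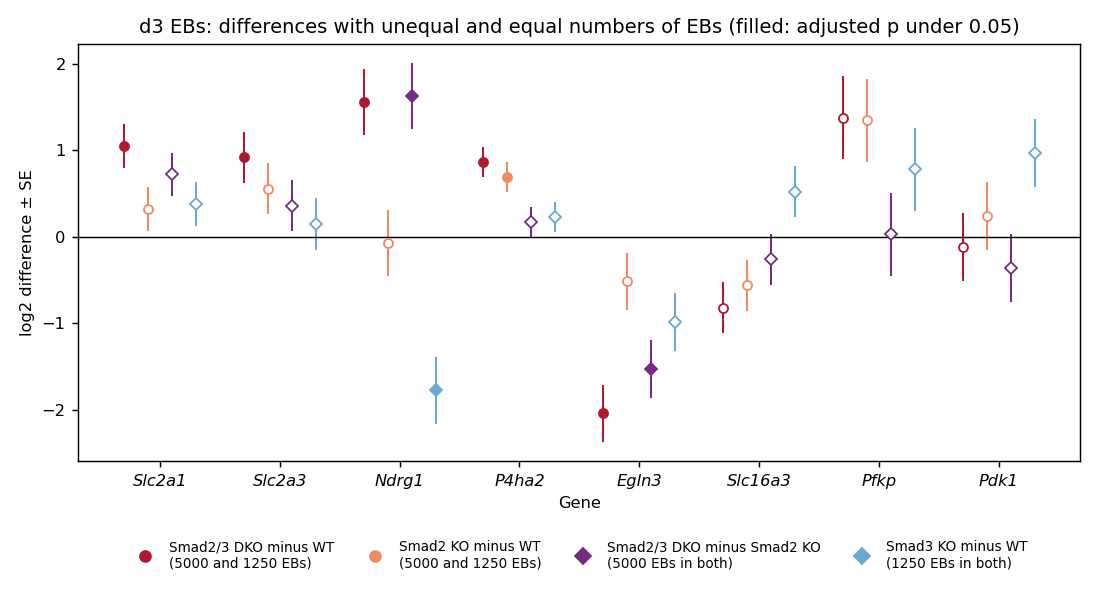
Fitted log2 differences with standard errors at d3 for 8 members in 4 comparisons, with unequal and equal numbers of EBs. For Ndrg1 the differences at equal numbers have opposite signs, 1.63 for Smad2/3 DKO against Smad2 KO and -1.77 for Smad3 KO against WT.

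Whether the Smad2/3 DKO effect in EBs differed from that in ESCs, where no EBs were collected, was tested across all 45 arrays. At d2 no member was called (background 0.228%, with 4 members at an unadjusted p under 0.05). At d3, Egln3 was the single member called, where 1.46% of all genes were called lower (fitted log2 difference -2.16 ± 0.63, adjusted p = 0.0452, and adjusted p = 0.00938 without the arrays that stood apart). Egln3 was detected on 0 of 4 d3 Smad2/3 DKO, 4 of 4 d3 WT, 0 of 3 ESC Smad2/3 DKO and 1 of 4 ESC WT arrays, so that a fall in ESCs could not have been measured and the fitted size is no measure of a difference between the stages. Leaving out 1 array at a time, the call was lost in 13 of 15 fits and was kept without ESC WT replicate 1 or d3 WT replicate 2 (adjusted p up to 0.126). For Slc2a1 the effect at d3 exceeded that in ESCs by 0.99 ± 0.30 (adjusted p = 0.0565, and 0.0297 without those arrays). For Ndrg1 it did so by 0.83 ± 0.46 (adjusted p = 0.415).

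Other genes of these pathways were counted at d3 against the background given above for Smad2/3 DKO and WT EBs (9.49% of all genes higher and 7.5% lower), and no list was tested against it. Of 32 other genes of glucose metabolism, 17 were tested, and 2 were upregulated and 2 downregulated in Smad2/3 DKO EBs against WT. Fbp2, the muscle fructose-bisphosphatase, which runs against phosphofructokinase, rose (log2 difference 2.02 ± 0.53, adjusted p = 0.0175), as did Eno3, the muscle enolase (log2 difference 0.99 ± 0.27, adjusted p = 0.0231). Dlat, a subunit of pyruvate dehydrogenase, fell (log2 difference -1.02 ± 0.17, adjusted p = 0.000878), as did the transporter Slc2a8 (log2 difference -0.62 ± 0.19, adjusted p = 0.0361). Of 40 other hypoxia-responsive genes, 29 were tested, and 3 rose, among them Hmox1, heme oxygenase (log2 difference 1.29 ± 0.29, adjusted p = 0.0066), and Plin2, a lipid droplet coat protein (log2 difference 0.80 ± 0.22, adjusted p = 0.0211), while Fam162a (log2 difference -0.94 ± 0.18, adjusted p = 0.00247) and Vldlr, a lipoprotein receptor (log2 difference -1.99 ± 0.50, adjusted p = 0.0147), fell. Of 30 subunits and carriers of oxidative phosphorylation, 26 were tested and 1 fell, Cycs, cytochrome c (log2 difference -0.55 ± 0.15, adjusted p = 0.0189). Of 14 targets of the stress factor Atf4, 13 were tested and 1 rose, Atf3 (log2 difference 1.09 ± 0.23, adjusted p = 0.00535). None of the 6 tested common reference genes was called. At d2 none of these lists held a called gene in Smad2/3 DKO EBs. The median log2 difference at d3 was 0.135 for the other glucose metabolism genes, -0.105 for the other hypoxia genes and -0.134 for oxidative phosphorylation, against -0.0277 over all genes.

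Markers of cell identity also differed between the genotypes. The 9 trophectoderm and simple epithelium genes averaged 10.09 to 11.74 in d2 Smad2/3 DKO EBs, against 7.07 to 7.82 in d2 WT EBs, with 9 of 9 upregulated. At d3 they averaged 11.34 to 12.30 in Smad2/3 DKO EBs, 10.02 to 11.16 in Smad2 KO, 7.05 to 8.01 in Smad3 KO and 7.53 to 8.81 in WT EBs, with 8 of 9 upregulated in Smad2/3 DKO EBs, and Plac1, Rhox6 and Rhox9 were detected on no d3 WT array. The 7 naive pluripotency genes averaged 9.39 to 10.14 in d3 Smad2/3 DKO EBs, against 7.29 to 8.16 in d3 WT EBs, with 5 of 7 upregulated, and Klf4 and Tcl1 were detected on no d3 WT array. The 5 primitive streak and mesoderm genes averaged 5.30 to 5.39 in d3 Smad2/3 DKO EBs, where all 5 were undetected, against 8.68 to 11.33 in d3 WT EBs, with 5 of 5 downregulated. The part of these cell identities in the differences of the transporters, Ndrg1, P4ha2 and Egln3 was not tested.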

How the data were processed

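RNA from 45 samples (RNeasy micro, biotinylated cRNA) was hybridised to Illumina MouseWG-6 v2.0 arrays. The authors deposited probe signal intensity with a detection p-value per probe from GenomeStudio 2009.2, and a normalized log2 table from an R-based Illumina module whose settings are not given in the sources used here. The value table deposited with the series held the same normalized values (largest difference 0). Before deposition, 3 ESC arrays had been dropped by the authors. The arrays' own number limits the precision.

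Here the deposited intensity was background-corrected with the detection p-values, quantile normalized and put on a log2 scale (neqc, offset 16; limma 3.58.1 in R 4.3.3). Probes with a detection p under 0.01 on at least 3 arrays were tested (16896 of 45281). Of all probes, 34885 had 1 gene symbol, 18 several and 10378 none, and a gene was named only from a probe with 1 symbol. Each stage was fitted with 4 genotype means, WT stages on the 12 WT arrays and stage dependence on all 45 (lmFit and eBayes). Adjusted p-values are Benjamini-Hochberg over all tested probes, and calls were made where it was below 0.05. The scripts were tested on simulated data. The alternatives were the deposited normalized log2 values, no background correction, median scaling, no detection filter, 1 fit of all arrays, the replicate number as a block, the clone as a random block, the mean of a gene's probes, the study's threshold and arrays left out.

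The members and lists were chosen with earlier results of these data known. Values per array are given for Slc2a1, Slc2a3, Gapdh, Pgk1, Ldha, Pdk1, Egln3, Ndrg1, Ddit4 and Ankrd37 as the best known of their roles (Hk2 and Bnip3 gave none), and for up to 8 members of smallest adjusted p in each of Smad2/3 DKO against WT at d2 and d3 and WT d3 EBs against ESCs. Pdk3 values and the test of the Smad3 effect with and without Smad2 were added after the data were seen. In WT the replicate number is the cell line, so that it pairs the stages. Over 12 pairs of WT arrays of the same line the correlation of deviations from the group mean was -0.263 to 0.46 (median -0.0304), with 3 over 0.1. Promoters were RefSeq's, and figures were drawn with matplotlib 3.10.9.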

Additional observations from a re-analysis of the deposited data

Results flagged for a closer look

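A sample far from the others was found in 11 of 225 sets of 4 arrays, 1 set per member and group, where chance gives about 1 in 20. In the arrays that stood apart from their labels, Pfkp was 9.65 in d2 Smad2/3 DKO replicate 4 (the next value was 9.25), and d2 Smad2 KO replicate 4 had Pfkm at 10.59 (next 10.95), Gapdh at 13.80 (next 13.94) and Ankrd37 at 7.94 (next 5.76). The Ankrd37 value was the largest departure, and the gene was detected on 6 of 45 arrays.

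Among other arrays, Egln3 was 7.04 in d3 WT replicate 2, where the others were 8.13 to 8.14, and Slc16a3 was 7.15 in d3 WT replicate 4, where the next value was 7.68. Ldha was 13.31 in d2 WT replicate 1 (next 13.99), Pdk3 was 9.82 in d2 Smad2 KO replicate 2 (next 9.69) and Gapdh was 14.06 in d2 Smad3 KO replicate 3 (next 13.74). Mif was 14.46 in ESC WT replicate 1 (next 14.13) and 13.98 in d2 Smad2/3 DKO replicate 1 (next 14.31).

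The fitted effect of Smad2/3 DKO on Egln3 at d3 minus that in ESCs was -2.16 on the log2 scale (adjusted p = 0.0452, with 0.00938 without the arrays that stood apart). Egln3 was detected on none of the d3 Smad2/3 DKO or ESC Smad2/3 DKO arrays and on 1 of 4 ESC WT arrays, so that a fall in ESCs could not have been measured. The effect of losing Smad3 on Ndrg1 at d3 differed between cells without and with Smad2 by 3.40 on the log2 scale (adjusted p = 0.00751). These cells also differed in line and in the number of EBs.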

How the results depend on the processing

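No call on a member reversed under any alternative. Of 45 calls on single members, 44 were kept with the authors' normalized table, 42 without background correction, 42 with the mean of a gene's probes, 42 with the clone as a random block, 41 without the arrays that stood apart, 30 without the detection filter and 29 with median scaling, which moved the median of all genes by up to 0.313 on the log2 scale. Where a cause is not in the construction of the alternative, the cause was not tested. Dim members (Egln3, Slc16a3, Ndrg1) lie close to the detection limit, and bright ones (Ldha, Mif) close to the top of the scale, which limits what the arrays can show of both.

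The number of members called changed by over 1.5 times as follows. With median scaling it was 1 in place of 5 for d3 Smad2/3 DKO against WT, 0 in place of 2 for d2 Smad2 KO, 0 in place of 1 for d3 Smad2 KO, 2 in place of 1 for d3 Smad3 KO and 1 in place of 2 for d3 Smad2/3 DKO against Smad2 KO. Without the detection filter, where more probes are tested, it was 5 in place of 8 for WT d3 EBs against ESCs, 1 in place of 2 for WT d3 against d2 EBs, 1 in place of 2 for d2 Smad2 KO, 0 in place of 1 for d3 Smad2 KO, for d3 Smad3 KO and for the stage dependence at d3, 1 in place of 2 for d3 Smad2/3 DKO against Smad2 KO and 3 in place of 6 for the number of EBs at d3. The d3 Smad3 KO count was also 0 with the authors' normalized table and 0 without background correction. In 1 fit of all 45 arrays it was 1 for d2 Smad2 KO and 0 for d3 Smad2 KO, and with the clone as a random block likewise 1 and 0. Without the arrays that stood apart it was 5 in place of 3 for d2 Smad2/3 DKO, 1 for d2 Smad2 KO, 0 for d3 Smad2 KO and 2 for the stage dependence at d3. With the mean of a gene's probes it was 0 for d3 Smad2 KO and 2 for the stage dependence at d3.

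At the study's threshold (unadjusted p below 0.05, fold over 1.5) it was 2, 4 and 1 in place of 0 for Smad2/3 DKO, Smad2 KO and Smad3 KO ESCs, 5 for d2 Smad2/3 DKO, 4 for d2 Smad2 KO, 2 for d3 Smad2 KO and 3 for d3 Smad3 KO. It was 3 at d2 and 4 at d3 for Smad2/3 DKO against Smad2 KO, 4 at d2 and 3 at d3 for the stage dependence, and 3 at d2 and 4 at d3 for the Smad3 effect without minus with Smad2. At the unadjusted p alone, without the fold, the shares of all genes were, in the same order, 3.31%, 7.91% and 6.25% for ESCs, 14.4%, 12%, 16.8% and 19.5% for the EBs against WT, 4% and 19.5%, 6.99% and 16.5%, and 9.83% and 14.6%. The share with the fold is not given here, so that these counts are not read as a result about the members.

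With the replicate block the count was 0 for d2 Smad2 KO, 0 for d3 Smad2 KO and 0 for the stage dependence at d3, and 35 of the 45 calls were kept. Outside the WT stages the numbers name clones and pair nothing by design, and over 33 pairs of same-numbered arrays the correlation of deviations was -0.218 to 0.298 (median 0.0083, 7 over 0.1).

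Leaving out 1 array at a time, 351 of 471 repeats of the single calls were kept. The number of members called then ranged from 5 to 8 for WT d3 EBs against ESCs (5 without d3 replicate 1 or 3), 1 to 2 for WT d3 against d2 EBs, 0 to 1 for d2 Smad2 KO, 0 to 1 for d3 Smad2 KO, 0 to 3 for d3 Smad3 KO, 1 to 2 for d3 Smad2/3 DKO against Smad2 KO, 3 to 9 for the number of EBs at d3 and 0 to 3 for the stage dependence at d3. The highest counts came without d3 WT replicate 2 (3 for d3 Smad3 KO and 3 for the stage dependence) and without d3 Smad2 KO replicate 4 (9 for the number of EBs), and the lowest of the number of EBs without d3 Smad2/3 DKO replicate 3 or Smad3 KO replicate 3 (3).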
